A study of Bos taurus with 8 samples.

Results

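The windows just upstream of genes were examined in a map of DNA methylation of bovine dermal fibroblasts. For each autosomal gene that spanned at least 3 windows of 3Kb, the 3 windows directly before its first window, in the direction of its strand, were taken if none of them carried a gene name. They are called distance 1, 2 and 3, with distance 1 next to the gene. Of 24038 autosomal genes, 15981 spanned at least 3 windows, and 10109 of these had 3 unnamed windows upstream. A further 5867 genes were left out because an upstream window carried a gene name, and 5 because the chromosome ended too soon. The 10109 genes gave 29591 distinct windows of the 902984 in the map (3.28%), since 736 windows lay upstream of more than 1 gene. Of the 29591 windows, 29452 were 3000 bases long and the longest had 3300.

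The study compared Holstein, a dairy breed, with Angus, a beef breed, to ask whether their methylomes differ. Dermal fibroblasts were grown out of skin biopsies of heifers of the same age, and un-treated cells at passage 5 from 4 Holstein and 4 Angus animals were used, 1 library per animal. Cultures are named after the breed and the animal. MIRA-Seq enriches sonicated genomic DNA with the MBD2b/MBD3L1 protein complex, which holds on to methylated CpG sites, so that a window with more methylated CpG gives more reads. Each animal stands for 1 culture, and the cells had been passaged, so the values describe cultured cells and not skin. The libraries analysed here hold DNA, and the RNA of these cultures was not analysed here, so their fibroblast identity was not checked on expressed markers.

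Most of a mammalian genome is methylated at its CpG sites, but CpG sites are sparse in most intergenic DNA, which therefore binds little of the pull-down protein. Many promoters sit in CpG islands, which stay free of methylation in cells whether or not the gene is in use, and methylation tends to return at the edges of an island, in its shores. Promoters of genes that serve only the germline are a known exception, because many of them carry methylated CpG-rich promoters in somatic cells. Upstream windows therefore lie where promoter, island shore and ordinary intergenic DNA meet. The first window of a gene here holds its annotated start, while the 3 upstream windows lie beyond it.

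Values are read counts scaled to the reads in all windows of the library (CPM). The libraries held 18691111 to 35525554 reads in windows, and 1.46% (Angus 3) to 2.73% (Holstein 2) of these lay in the upstream windows. A typical upstream window was shallow, with a median of 4 to 16 reads per library, and 3 reads, taken as the smallest count told from 0, stood for 0.0844 to 0.161 CPM. Such floors cover counting error only, since PCR copies are not independent molecules. Angus 3 and Holstein 1 stood apart from the other libraries: their scaling factors by TMM, which compares the bulk of windows between libraries, were 0.677 and 0.817, against 0.952 to 1.22 in the others, so fewer of their reads lay in ordinary windows. Fewer methylated cells, less methylation per cell and fewer CpG sites in a window cannot be told apart in these values.

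The typical upstream window held about as many reads at each of the 3 distances. The median over 10109 genes was 0.364 ± 0.116 CPM at distance 1, 0.353 ± 0.118 at distance 2 and 0.354 ± 0.101 at distance 3 (mean ± SD of the medians of 8 cultures). In 6 of 8 cultures the medians at distances 1 and 2 were identical, because a median is a whole number of reads. The medians at distance 1 ran from 0.201 CPM in Angus 3 and 0.202 in Holstein 1 to 0.519 in Holstein 2, so cultures differed far more than distances did. The first window of the same genes had a median of 0.367 ± 0.104 CPM, and the windows at positions 2 and 3 inside the gene had 0.387 ± 0.109 and 0.420 ± 0.122. The 472660 other unnamed autosomal windows were lower, with a median of 0.256 ± 0.0759 CPM. Their median was below that of distance 1 in 8 of 8 cultures, by 0.108 CPM on average, and below that of distance 3 in 8 of 8, by 0.0985 CPM (exact sign-flip permutation test over cultures, two-sided, adjusted p = 0.0156 each).

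**Figure D1:**
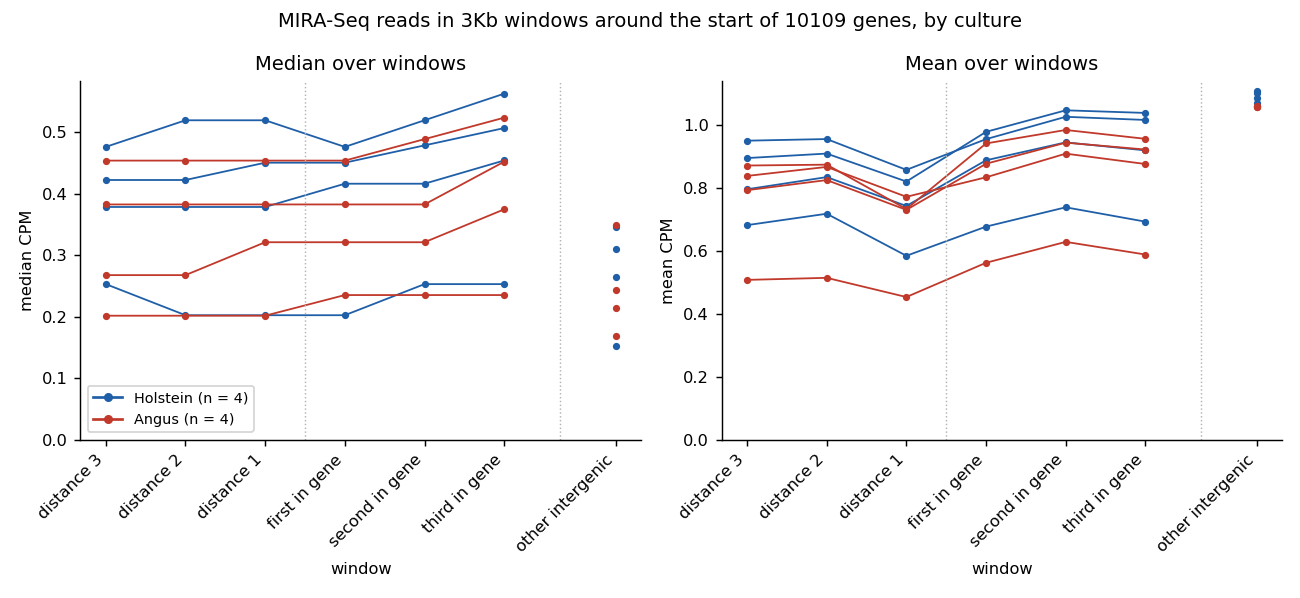
Median (left) and mean (right) CPM over windows at distances 3 to 1 upstream of 10109 genes, in the first 3 windows of the same genes, and in other intergenic windows, with 1 line or point per culture and colours for breed. Medians stayed level from distance 3 to the first window of the gene and lay above those of other intergenic windows, while the means dipped at distance 1 and lay below those of other intergenic windows, which sat between 1.06 and 1.11 CPM.

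Means gave another picture, with a dip next to the gene. The mean CPM was 0.712 ± 0.132 at distance 1, 0.812 ± 0.139 at distance 2 and 0.792 ± 0.140 at distance 3 (SD, n = 8). At distance 1, Holstein 1 to 4 had 0.584, 0.858, 0.743 and 0.820 CPM. Angus 1 to 4 had 0.772, 0.730, 0.453 and 0.733 CPM. The 2 low values belonged to Holstein 1 and Angus 3. Within each culture, distance 1 was lower than distance 2, by 0.0610 to 0.141 CPM and 0.101 on average, and lower than distance 3, by 0.0800 on average. Distance 2 exceeded distance 3 in 8 of 8 cultures, by 0.0206 CPM. Each of the 3 differences had an adjusted p of 0.00781 (exact sign-flip permutation test, two-sided), the smallest that 8 cultures can give. These p-values speak of the spread between cultures, which all read the same windows, and not of the spread between genes.

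The differences between means came from a small number of windows with very many reads. The 1% of autosomal windows with the most reads, those above 5.00 CPM, included 192 upstream windows (0.649% of them) at 142 genes, and these held 27.4 to 43.9% of all upstream reads of a library. They held 25.8% of the CPM at distance 1, 34.99% at distance 2 and 33.1% at distance 3. The 10 highest windows at each distance alone held 16.0%, 21.4% and 22.8%. When genes with such a window at any distance were left out, the means of the remaining 9967 genes were 0.521 ± 0.119, 0.520 ± 0.118 and 0.523 ± 0.118 CPM at distances 1, 2 and 3. Leaving out genes with such a window at the 2 distances compared, distance 1 could no longer be told from distance 2 (difference 2.4e-05 CPM, exact sign-flip permutation test, p = 0.977), and the difference of distance 2 from distance 3 was -0.0025 CPM (adjusted p = 0.0234).

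Upstream windows were also set against intergenic DNA elsewhere. The mean of other intergenic windows was 1.07 ± 0.0205 CPM, above distance 1 by 0.363 CPM and above distance 3 by 0.283 CPM, in 8 of 8 cultures (exact sign-flip permutation test, adjusted p = 0.00781). The gap was widest in Angus 3 (0.607 CPM at distance 1) and in Holstein 1 (0.523). This order again rested on the windows with the most reads, which held 63.0% of the CPM of other intergenic windows. Without the top 1% of windows, distance 1 exceeded other intergenic windows by 0.131 CPM and distance 3 exceeded them by 0.133 CPM, in 8 of 8 cultures (exact sign-flip permutation test, adjusted p = 0.00781).

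The share of high windows separated upstream DNA from both sides. A CPM of at least 1 was reached by 12.9% ± 3.94 of windows at distance 1, 13.2% ± 3.80 at distance 2 and 13.5% ± 4.00 at distance 3 (SD, n = 8). The share at distance 1 was the lower in 8 of 8 cultures against either of the other distances, by 0.262 and 0.534 percentage points on average. It was higher inside the gene in 8 of 8 cultures, at 17.8% in the first window, 21.3% in window 2 and 23.3% in window 3, and was 8.64% in other intergenic windows. Windows without a read made up 3.36% at distance 1, 3.76% at distance 2, 3.63% at distance 3 and 6.51% in other intergenic windows. Distance 1 had fewer empty windows than distance 2 in 8 of 8 cultures. The windows next to a gene thus had slightly fewer members at both ends of the range.

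**Figure D2:**
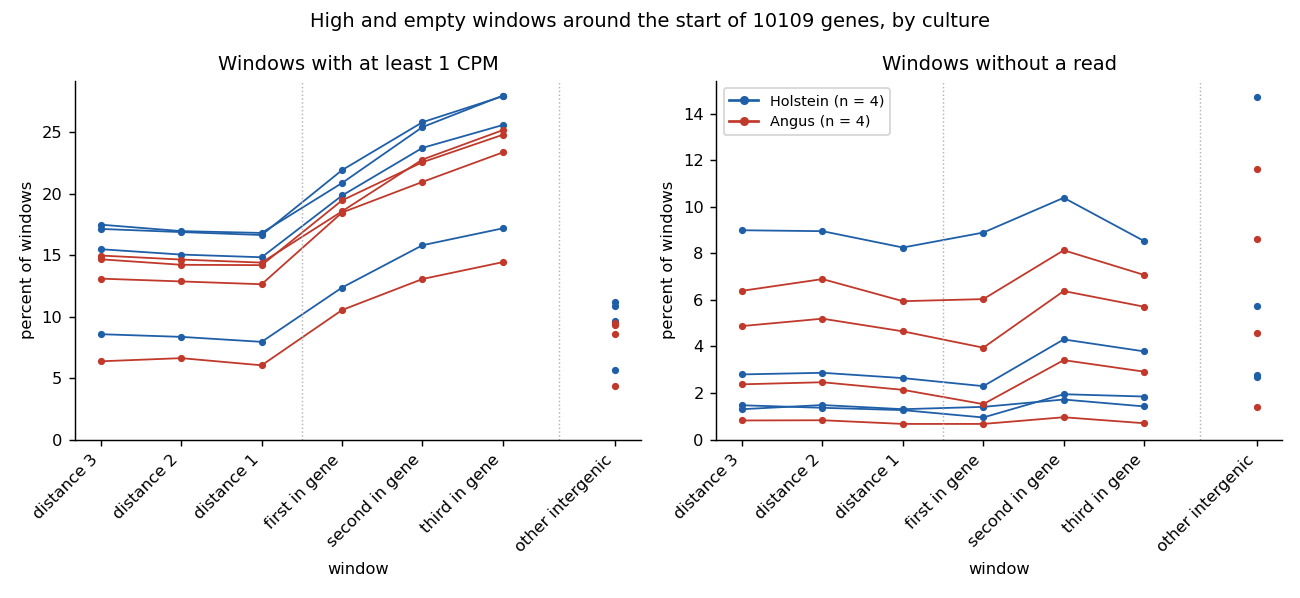
Percent of windows with at least 1 CPM (left) and without a read (right) at each position around the first named window of 10109 genes. Each line is 1 culture, with other intergenic windows as points. The share of high windows was level over the 3 upstream windows (12.9 to 13.5% on average) and was higher at each step over the first 3 windows of the gene in all 8 cultures.

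The first window of the gene was higher than distance 1 by mean, and this came from its upper range. It held 0.839 ± 0.146 CPM against 0.712 ± 0.132, a difference of 0.127 CPM that was positive in 8 of 8 cultures, from 0.0621 in Angus 1 to 0.209 in Angus 4 (exact sign-flip permutation test, adjusted p = 0.00781). The medians differed by 0.00352 CPM only (adjusted p = 1, the same test), and at the 90th percentile of windows the first window had 1.52 CPM against 1.09 at distance 1. Gene by gene, the first window exceeded distance 1 in 8 of 8 cultures at 2304 genes (22.8%), and distance 1 exceeded the first window in 8 of 8 at 1780 genes (17.6%). In stretches of 10 or more unnamed windows the difference of means was smaller, 0.0603 CPM.

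High windows tended to lie side by side. Of the 912 genes whose first window had at least 1 CPM in all 8 cultures, 274 (30.04%) also had such a window at distance 1, while 499 (54.7%) had none upstream. Of the 4010 genes whose first window stayed under 0.5 CPM in all 8, only 33 (0.823%) had one at distance 1, against 527 (5.21%) of all 10109 genes. Most genes had no upstream window at or above 1 CPM in all 8 cultures (9037 genes, 89.4%), 664 had 1, 268 had 2 and 140 (1.38%) had 3. Across genes, the log2 CPM of adjacent windows correlated with Pearson's r = 0.56 for distances 1 and 2, 0.55 for distances 2 and 3, and 0.50 for the first window and distance 1. It was 0.47 between distances 1 and 3 and 0.40 between the first window and distance 3, while windows 2 and 3 inside genes reached 0.66. These coefficients describe genes of the same libraries, which are not independent replicates.

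Single genes often departed from the level profile, in both directions and about as often. Distance 1 exceeded distance 3 in 8 of 8 cultures at 2030 genes (20.1%), and the reverse held at 1957 genes (19.4%). In each direction, 361 of these genes had at least 1 CPM in all cultures in the higher of these windows. Upstream windows with a mean of at least 1 CPM had a median coefficient of variation of 18.97% between cultures, once scaled by TMM, over 3580 windows.

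The highest upstream windows are listed here because they set the means. At distance 1 the highest was that of HOOK1, a linker between microtubules and endosomes, at chr3:86719210-86722309 (UMD v3.1). It had 301, 258, 212 and 242 CPM in Holstein 1 to 4 and 266, 249, 118 and 316 CPM in Angus 1 to 4. All cultures were high, with Angus 3 the lowest. PIK3R4, which encodes a regulatory subunit of the class III PI3-kinase, had 168 ± 40.9 CPM at distance 1, and RBM27, a gene of an RNA-binding protein, had 102 ± 25.5 (SD, n = 8).

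At distance 2, the window of TMPRSS7, a gene of a membrane-bound serine protease, was the highest of all upstream windows. It lay at chr1:57220901-57223900 and had 736, 756, 650 and 660 CPM in Holstein 1 to 4, and 614, 539, 301 and 898 CPM in Angus 1 to 4. Its neighbour at distance 3 had 360 ± 103 CPM, while distance 1 had 0.257 ± 0.0631 and the first window of the gene 0.243 ± 0.166. The high counts thus lay in the 2 outer windows, and not at distance 1 or in the first window. At distance 3, KY, a gene needed in muscle, had 362 ± 106 CPM and ERBB4, a receptor tyrosine kinase gene, had 247 ± 63.6.

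The coverage of the most covered base of a window was set beside its read count. In HOOK1 it came to 20.97 to 28.69% of the count, and in PIK3R4 to 47.8 to 57.5%. Coverage can include reads that are not counted in the window, since in the first window of RBM27 it came to between 85.8 and 128% of the count, so the ratio is not a share of the window's reads. Among upstream windows in the top 1%, the median of this ratio was 19.5%, with a 90th percentile of 57.7%, over libraries with at least 100 reads in the window. Among the 725 other upstream windows with as many reads, the median was 13.9% and the 90th percentile 20.7%. How reads that match several places were assigned is not given in the sources used here, and its part in these windows was not tested.

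The steepest profiles, among genes with at least 1 CPM in all cultures at distance 1 or 3, mostly came from such windows. Distance 1 exceeded distance 3 most at PIK3R4 (168 against 0.176 CPM), LOC786055 (48.2 against 0.0999), T (74.1 against 0.195), RBM27 (102 against 0.283) and CCDC167 (94.5 against 0.293). T encodes brachyury, a factor of the early mesoderm, and its first window (30.7 ± 7.80 CPM) and distance 2 (114 ± 35.4 CPM) were high as well. The opposite order was steepest at TMPRSS7, at MTERF (0.0663 against 60.7 CPM), whose product acts in mitochondrial transcription, at KY (0.656 against 362), at LOC100848009 (0.0224 against 11.3) and at SGSM3 (0.00869 against 3.29). At LOC100848009 and SGSM3 distance 1 held under 3 reads in each library, so no fold is given. These genes were chosen by their values, and the values are a description.

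The level of upstream windows went with the length of the unnamed stretch in which they lay. The stretch of unnamed windows upstream of a gene had a median length of 13 windows, from 3 to 1071. At distance 1 the median CPM was 0.387 in stretches of 3 to 5 windows (2222 genes), 0.383 in stretches of 11 to 20 (2018 genes), 0.319 in stretches of 51 to 100 (905 genes) and 0.270 in stretches over 100 (801 genes). The shortest stretches had the higher median in 8 of 8 cultures against those over 100 windows, by 1.33 to 1.67 times. Distances 2 and 3 showed mean ratios of 1.53 and 1.48 for the same contrast, against 1.45 at distance 1. The share of distance 1 windows at or above 1 CPM, taken in each culture and averaged over cultures, was not highest in the shortest stretches. It was 12.1% there, 14.2% in stretches of 21 to 50 and 9.004% over 100.

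**Figure D3:**
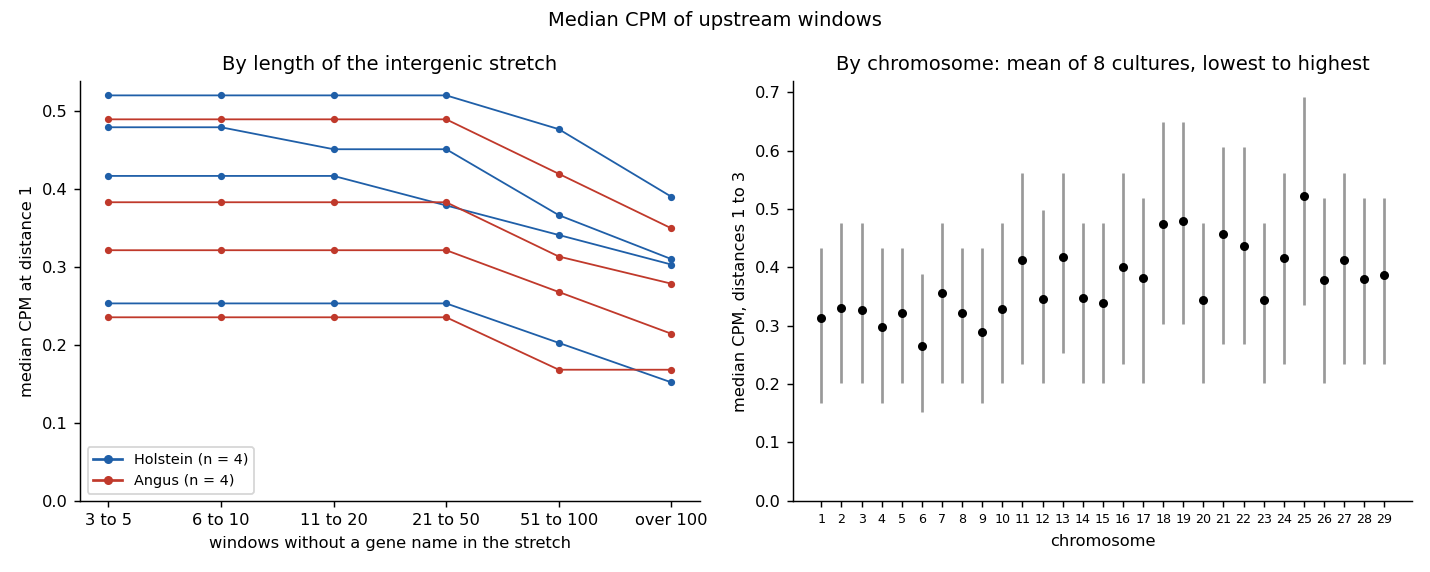
Left: median CPM at distance 1 by the number of unnamed windows in the stretch upstream of the gene, 1 line per culture. Right: median CPM over distances 1 to 3 by chromosome, with points for the mean of 8 cultures and bars from the lowest to the highest culture. Medians were level up to stretches of 50 windows and lower beyond, and chromosome 25 had the highest median (0.522 CPM) and chromosome 6 the lowest (0.266 CPM).

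Chromosomes ranked similarly from culture to culture. The median over the 3 upstream windows was highest on chromosome 25 (0.522 CPM, 242 genes), which ranked first in 8 of 8 cultures, followed by chromosomes 19 (0.479), 18 (0.475), 21 (0.457) and 22 (0.436). Chromosomes 18 and 19 ranked between 1 and 4 in all cultures. Chromosome 6 had the lowest median (0.266 CPM, 367 genes) and ranked 27 to 29 of 29, with chromosomes 9 (0.290) and 4 (0.299) next. The median stretch was 9 windows on chromosome 25 and 20 on chromosome 6, but its length did not order the chromosomes. It was longest on chromosome 27 (25 windows), where the upstream median was 0.412 CPM. Chromosome 5, with a median stretch of 12 windows, had 0.321 CPM. Gene symbols starting with LOC, which mark loci without an established name, had lower upstream windows than other symbols, with a median of 0.303 against 0.385 CPM at distance 1 (1833 and 8276 genes), while their first windows were closer (0.360 against 0.370 CPM).

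The gene beyond the stretch could face the same way (tandem, 5193 genes) or away (divergent, 4904 genes), so that a divergent stretch holds the upstream ends of both its neighbours. In stretches of 3 to 10 windows, the mean of the 3 upstream windows was 0.724 ± 0.135 CPM at 1943 divergent genes and 0.630 ± 0.128 CPM at 2395 tandem genes. The difference of 0.0940 CPM was positive in 8 of 8 cultures (exact sign-flip permutation test, adjusted p = 0.00781). It did not hold in typical windows: the difference of the medians was 0.00117 CPM (adjusted p = 1, the same test), and without the top 1% of windows the difference was -0.00903 CPM (adjusted p = 0.00781). Among genes with a symbol other than LOC it was 0.0080 CPM (exact sign-flip permutation test, adjusted p = 0.336).

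Lists of genes by function were described by the mean CPM of the 8 cultures. Over all 10109 genes it reached 1 CPM in 17.0% of first windows and in 11.6%, 12.1% and 12.5% of windows at distances 1, 2 and 3. Germline genes had the widest gap between the positions by list median: 8 of 11 had a first window of at least 1 CPM, against 1 of 11 at distance 1 and none at distances 2 and 3. The list median was 1.47 CPM in the first window and 0.237 at distance 1, against 0.368 and 0.370 over all 10109 genes. The first window exceeded distance 1 in 8 of 8 cultures at 9 of the 11 genes, a pattern seen at 22.8% of all genes. DDX4, an RNA helicase gene of germ cells, had between 1.65 and 2.57 CPM in its first window (median 2.18) and between 0 and 0.476 at distance 1 (median 0.234), so the positions did not overlap. PIWIL2, whose product binds piRNAs, had 2.15 ± 0.656 and 0.163 ± 0.0862 CPM, and DAZL, an RNA-binding protein gene of germ cells, 1.47 ± 0.292 and 0.350 ± 0.197 CPM. PIWIL1 had the opposite order, with 0.341 ± 0.180 CPM in its first window (chr17:47759294-47762293, minus strand) and 2.77 ± 0.625 at distance 1.

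Genes of the fibroblast matrix had the lowest first windows of the 10 lists by median. The median of its 20 genes was 0.183 CPM in the first window, 0.272 at distance 1, 0.352 at distance 2 and 0.311 at distance 3. The upstream windows were thus nearer to the level of all genes than the first windows. COL3A1, a fibrillar collagen gene, had a median of 0 CPM at distance 1 and 0.105 CPM in the highest culture. COL1A1, the gene of the main collagen chain of skin, had 0.210 ± 0.107 CPM in the first window and 0.200 ± 0.117 at distance 1. In all, 3 collagen genes and PDGFRB, a receptor gene of mesenchymal cells, reached 1 CPM at distance 1, namely COL5A1 (3.00 ± 1.18), COL6A2 (1.57 ± 0.250), COL6A1 (1.22 ± 0.456) and PDGFRB (1.27 ± 0.505). COL5A1 was high in its first named window as well (3.88 ± 1.19 CPM). Its name stood on 4 windows, against 54 for COL5A2, and whether these cover the whole gene was not checked.

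Imprinted genes, which are read from 1 parental copy and are flanked by regions methylated on 1 copy, had the highest list median upstream. Among 8 genes, 4 reached 1 CPM at distance 1, 5 at distance 2 and 3 at distance 3, and the list median was 0.980 CPM at distance 1. KCNQ1, a potassium channel gene, had 3.77 ± 0.877 CPM at distance 1 and 2.14 ± 0.443 in its first window. DLK1, a Notch-related ligand gene, had 3.70 ± 0.675 CPM at distance 1 and 0.603 ± 0.252 in its first window. Its lowest culture at distance 1 (2.94 CPM) was above the highest in the first window (0.939 CPM). PLAGL1, a zinc finger gene, showed the reverse, with 1.64 ± 0.570 CPM in its first window and 0.135 ± 0.105, 0.0737 ± 0.0632 and 0.0306 ± 0.0348 CPM at distances 1, 2 and 3, all near or under the floor of 3 reads.

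Markers of other skin and blood cells had higher list medians in the first window than at distance 1, but single genes went both ways. The first window exceeded distance 1 in 8 of 8 cultures at 4 of 13 keratinocyte, 4 of 10 immune cell and 6 of 13 endothelial and melanocyte genes. The reverse held at 3, 2 and 3 genes. Over all genes these shares were 22.8% and 17.6%. Keratinocyte genes had a median of 1.32 CPM in the first window and 0.516 at distance 1 (13 genes), with 7 and 5 genes at or above 1 CPM. KRT17, a keratin gene, had 6.65 ± 0.692 CPM in its first window and 1.60 ± 0.531 at distance 1, whereas PKP1, a gene of the desmosome, was higher upstream (4.14 ± 0.847 CPM at distance 1 against 2.26 ± 0.517). Immune cell genes had medians of 0.821 and 0.728 CPM (10 genes), and PTPRC, the gene of CD45, was highest at distance 3 (3.01 ± 0.795 CPM). Endothelial and melanocyte genes had medians of 0.550 and 0.490 CPM (13 genes), and none reached 1 CPM at distance 1.

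Genes that sense or answer LPS, the bacterial lipopolysaccharide with which the study challenged such cultures, had medians of 0.419, 0.396 and 0.319 CPM at distances 1, 2 and 3, against 0.370, 0.367 and 0.363 over all genes. Of the 14 genes, 8, 7 and 5 were above the median of all genes. None reached 1 CPM in the first window or at distances 1 and 2, and 3 did at distance 3, namely CCL5 (1.59 ± 0.378), NFKB2 (1.52 ± 0.254) and IRF1 (1.14 ± 0.304). TLR4, the LPS receptor gene, had 0.563 ± 0.232 CPM at distance 1, and IL8, the neutrophil chemokine gene, 0.223 ± 0.123. Developmental transcription factors had a median of 0.357 CPM in the first window and 0.474 at distance 1 (16 genes). Of these, 5 reached 1 CPM at distance 1 and 2 in the first window. TBX15, a gene of limb and skin patterning, was the highest at distance 1, with 2.04 ± 0.655 CPM and 0.330 ± 0.166 in its first window. TWIST2 had 1.42 ± 0.538 and 0.329 ± 0.132 CPM. Distance 1 exceeded the first window in 8 of 8 cultures at 4 of the 16 genes, and the reverse held at 3. Genes of the methylation machinery had medians of 0.986 and 0.534 CPM (7 genes), with TET3, a gene of 5-methylcytosine oxidation, at 2.64 ± 0.520 and 1.28 ± 0.421 CPM. The 4 housekeeping genes had medians of 0.277 and 0.417 CPM.

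**Figure D4:**
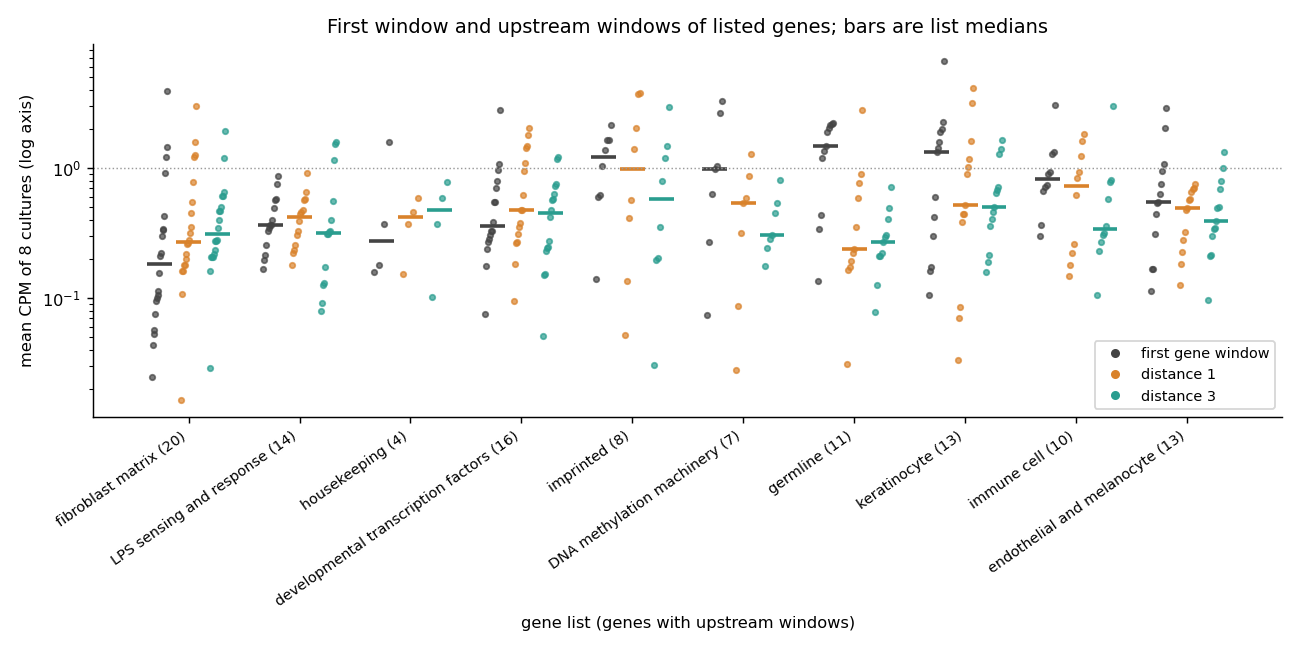
Mean CPM of 8 cultures (log axis) in the first window, at distance 1 and at distance 3 for the genes of 10 lists, 1 point per gene, with bars for list medians and a dotted line at 1 CPM. Germline genes had a median of 1.47 CPM in the first window and 0.237 at distance 1, while fibroblast matrix genes were lowest in the first window (0.183 CPM).

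Between Holstein and Angus cultures no difference was detectable in the level of upstream windows as a whole. At distance 1 the mean was 0.751 ± 0.121 CPM in Holstein and 0.672 ± 0.147 in Angus (SD, n = 4 each), a difference of 0.0792 CPM (exact permutation test, two-sided, p = 0.457, adjusted p = 0.486). At distance 2 it was 0.854 ± 0.104 against 0.770 ± 0.172 CPM, and at distance 3 0.831 ± 0.118 against 0.753 ± 0.166 (exact permutation test, p = 0.486 each). The smallest p that 4 against 4 cultures can give is 0.0286. The difference rested on Angus 3, without which it was 0.00621, -0.00101 and -0.00339 CPM at the 3 distances. The contrasts between distances did not differ detectably between breeds either (exact permutation test over 7 contrasts, adjusted p = 0.943 each).

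Single windows were tested for a breed difference in the fit of all windows. Of the 29591 upstream windows, 3967 (13.4%) reached 1 CPM in 4 or more cultures, the minimum for the test, as had 12.8% of all windows. With edgeR's likelihood-ratio test, an adjusted p (FDR) below 0.1 and a fold change of at least 2, 2 upstream windows were called higher in Holstein and 1 in Angus. Over all 115360 tested windows, 0.039% were called higher in Holstein and 0.192% higher in Angus, and the 2 and 1 calls upstream are too few to be read against these shares. With edgeR's quasi-likelihood test, which called 0.0234% and 0.0988% of all windows, the counts were 2 and 0. An unadjusted p below 0.05 was found for 5.43%, 5.62% and 4.85% of tested windows at distances 1, 2 and 3, against 4.94% of all tested windows. Without the CPM minimum, 13 and 10 of 29520 upstream windows were called higher in Holstein and in Angus, against 0.0266% and 0.0754% of all 887821 windows. The paper's own list of differentially methylated windows was about evenly split between the breeds. It holds the 2 upstream windows called higher in Holstein by the likelihood-ratio test, and not the 1 called higher in Angus.

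The clearest call lay upstream of MAD2, the label of a spindle checkpoint gene on chromosome 6. The window at distance 2 (chr6:5529182-5532181, plus strand) had 4.20, 10.9, 5.41 and 6.59 CPM in Holstein 1 to 4 and 3.25, 2.33, 2.28 and 2.09 CPM in Angus 1 to 4. All Holstein cultures were above all Angus cultures. The log2 fold change was 1.24 (SE 0.22), with an adjusted p of 6.33e-05 by edgeR's likelihood-ratio test and 0.0139 by its quasi-likelihood test. The neighbours were below the CPM minimum and were not tested. Distance 1 had 0.355 ± 0.197 CPM in Holstein and 0.187 ± 0.0637 in Angus, the first window 0.377 ± 0.186 and 0.189 ± 0.114, and distance 3 0.227 ± 0.0790 and 0.165 ± 0.207 (SD, n = 4 each). The coverage of its most covered base came to 20.9 to 39.7% of its read count. Without Holstein 2, the highest culture, no upstream window was called higher in Holstein.

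The window at distance 2 of LOC786348 (chr24:62388931-62391930, minus strand) had 0.961, 1.43, 1.82 and 2.20 CPM in Holstein and 1.08, 0.452, 0.302 and 0.642 CPM in Angus. In these CPM the groups overlapped, since Holstein 1 lay below Angus 1. The test, unlike CPM, was scaled by TMM, with factors of 0.817 for Holstein 1 and 0.952 for Angus 1. The log2 fold change was 1.23 (SE 0.27), with an adjusted p of 0.00445 by edgeR's likelihood-ratio test and 0.0817 by its quasi-likelihood test. Its first window had 1.33 ± 0.682 CPM in Holstein and 1.03 ± 0.807 in Angus (SD, n = 4 each). The fitted log2 difference there was 0.20 (SE 0.35). Distance 1 had 0.959 ± 0.334 and 0.537 ± 0.351 CPM and distance 3 had 0.538 ± 0.186 and 0.296 ± 0.364 CPM, both below the CPM minimum and not tested. The number of upstream windows called higher in Holstein was 1 without Holstein 3, 3 without Holstein 4 and 4 without Angus 1.

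The window at distance 1 of LOC529707 (chr2:70978934-70981933, minus strand) was the call in the other direction. It had 0.607, 1.17, 1.85 and 1.01 CPM in Holstein and 3.00, 1.81, 0.705 and 3.42 CPM in Angus. The groups overlapped in CPM not scaled by TMM, with Angus 3 lower than all Holstein cultures but Holstein 1. The log2 fold change was -1.01 (SE 0.28), just inside the minimum of 2-fold, with an adjusted p of 0.0753 by edgeR's likelihood-ratio test and 0.260 by its quasi-likelihood test. The windows at distances 2 and 3 of this gene had log2 fold changes of -0.36 (SE 0.23) and -0.38 (SE 0.22). The number of upstream windows called higher in Angus was 0 without Holstein 1, Holstein 2, Angus 1 or Angus 4, and 2 without Holstein 3 or Angus 3. With Holstein 1 and Angus 3 both left out, a choice made after the data were seen, 3 windows were called higher in Holstein and 4 in Angus.

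Another 3 windows passed the adjusted p but not the fold change. COL5A1, which encodes a chain of type V collagen, had 1.21, 3.07, 2.84 and 2.45 CPM at distance 1 in Holstein and 3.56, 3.86, 2.01 and 5.03 CPM in Angus (chr11:106995985-106998984). In these CPM the groups overlapped through Angus 3. The test, unlike CPM, was scaled by TMM, and the factor of Angus 3 was 0.677, the lowest of all libraries. Its log2 fold change was -0.69 (SE 0.17), with an adjusted p of 0.0297 by edgeR's likelihood-ratio test and 0.175 by its quasi-likelihood test. Whether the 4 windows named COL5A1 cover the whole gene was not checked. The window at distance 3 of LOC100848433 had 3.08 ± 0.171 CPM in Holstein and 1.78 ± 0.514 in Angus, without overlap, and a log2 fold change of 0.65. The window at distance 3 of LOC509034 had 1.20 ± 0.478 and 1.90 ± 0.172 CPM, with overlap in CPM, and a log2 fold change of -0.81. No other upstream window of a listed gene passed the adjusted p in edgeR's likelihood-ratio test, and the nearest, at distance 1 of MEST, an imprinted gene, had an adjusted p of 0.280 (log2 fold change -0.78, SE 0.25).

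**Figure D5:**
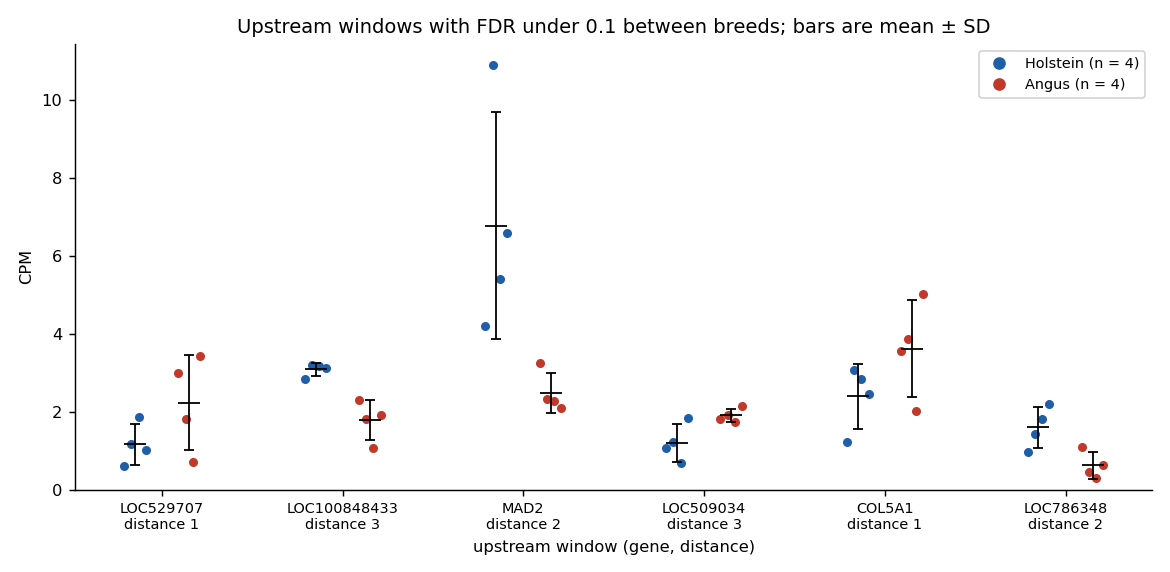
CPM in each culture for the 6 upstream windows with an adjusted p below 0.1 between breeds in edgeR's likelihood-ratio test, with bars for mean ± SD of 4 Holstein and 4 Angus cultures. In the CPM shown, Holstein and Angus cultures separated at MAD2 and LOC100848433, and overlapped at LOC529707, LOC509034, COL5A1 and LOC786348. These CPM were not scaled by TMM, while the test was. The TMM factors were lowest in Angus 3 (0.677) and Holstein 1 (0.817), so overlap in CPM need not hold on the scale of the test.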

How the data were processed

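MIRA-Seq libraries of 4 Holstein and 4 Angus cultures were analysed. The authors aligned reads to UMD v3.1 with NextGENe v2.3.4 and deposited, for each library, the raw read count of each consecutive 3Kb window with its gene name. They also deposited the highest coverage in each window, a signal not scaled for depth, which was used only beside the read counts of high windows. How duplicate and multiply matching reads were handled is not given in the sources used here, and there was no input library, so counts depend on CpG density and pull-down efficiency. CASAVA 1.7 is named in the submitters' processing notes.

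CPM used the total over all windows as library size. Windows were ordered by start, and a gene was the symbol and strand in the window's gene name. At 290 genes the named windows were not contiguous, and 12 symbols stood at more than 1 place. Mean CPM was compared within cultures by exact sign-flip permutation tests and breed means by the exact permutation of labels, each adjusted by Benjamini-Hochberg within a family of 3 or 4 comparisons. Differential methylation was tested on all windows that reached 1 CPM in 4 or more samples. The likelihood-ratio test of edgeR 4.0.16 in R 4.3.3 was used (TMM, estimateDisp), with the quasi-likelihood test beside it. The likelihood-ratio test and the thresholds (FDR < 0.1, FC ≥ 2) are those of the paper's methods, which do not name TMM or estimateDisp. The fit called 45 windows higher in Holstein and 222 in Angus, more than the paper lists, and the reason was not tested. A log2 fold change is Holstein over Angus. On simulated counts for this comparison over 115360 windows, the likelihood-ratio test recovered 23, 48, 50 and 50 of 50 windows changed 2, 3, 4 and 8-fold, with 12 false calls. The simulation gave all windows the same dispersion and all libraries the same composition. The real libraries differ in composition, so these counts check the procedure and are not error rates for the data. Other steps used Python 3.11.15, numpy 2.4.6, pandas 2.3.3 and scipy 1.17.1. Correlations across genes used log2(CPM + 0.1).

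Libraries of 1 breed differed by more than sampling noise (chi-square per window 1.41 to 2.99 over 12 pairs), so each counted as 1 sample. Nothing says that the cultures were repeated, so p-values measure the spread between these 8 cultures.

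The members and the gene lists were chosen with earlier results of these data known. Named are called windows, the 3 highest genes at each distance by their lowest culture (1 at distance 2 is not reported here), the 5 steepest profiles in each direction, and, from each list, examples among the highest and lowest genes at distance 1. Other listed genes named in the text were chosen after their values were seen. The lists were fibroblast matrix, LPS sensing and response, housekeeping, developmental transcription factors, imprinted, DNA methylation machinery, germline, keratinocyte, immune cell, and endothelial and melanocyte genes. Alternatives were other library sizes, medians, leaving out the top 1% of windows, each window once, named symbols, long stretches, DESeq2 1.42.0, autosomes only, a block for the animal number, no CPM minimum, and leaving out samples.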

Additional observations from a re-analysis of the deposited data

Results flagged for a closer look

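In 32 groups of 4 cultures the value farthest from its neighbours was compared with the range of the group, and 4 stood apart. Chance gives about 1 in 20 independent groups. These groups share libraries and windows and are not independent, so the count cannot be read against that rate. Angus 3 stood below the other Angus cultures in mean CPM at distance 1 (0.453) and at distance 2 (0.514), and in the difference between distance 1 and other intergenic windows (-0.607 CPM). The TMM factor of this library was 0.677, the lowest of the 8, and its part in these values was not tested. In the difference between distances 1 and 3, Angus 4 (-0.138 CPM) stood apart from the other Angus cultures, which had -0.0664, -0.0625 and -0.0545 CPM. Angus 4 had the fewest reads in windows (18691111), and its part was not tested.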

How the results depend on the processing

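Under another setting 146 values stayed the same, 12 turned direction, 5 fell short of the threshold and 18 counts of calls moved by more than 1.5 times. A tested difference stayed the same if it kept its direction and its side of the threshold. A count of calls stayed the same if it moved by no more than 1.5 times. With medians in place of means, the differences were 0.0102 (distances 1 and 2), -0.000912 (2 and 3), 0.00929 (1 and 3), 0.00352 (first window and distance 1) and 0.00117 CPM (divergent and tandem), none past the threshold, while distances 1 and 3 exceeded other intergenic windows by 0.108 and 0.0985 CPM. Without the top 1% of windows, the same differences between distances were 2.4e-05, -0.0025 and -0.00175 CPM, those to other intergenic windows 0.131 and 0.133 CPM, and divergent minus tandem was -0.00903 CPM. The first window still exceeded distance 1 by 0.0883 CPM (exact sign-flip permutation test, adjusted p = 0.00781). With named symbols only, distances 2 and 3 differed by 0.0149 CPM and divergent from tandem genes by 0.0080 CPM, both short of the threshold, and the cause was not tested. Leaving out each culture in turn, the breed difference ranged from 0.00621 to 0.135, from -0.00101 to 0.130 and from -0.00339 to 0.128 CPM at distances 1, 2 and 3, with the lowest values without Angus 3, and with TMM library sizes it was 0.0157, 0.0185 and 0.0123 CPM. The other contrasts kept direction and call without each culture.

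Upstream windows called higher in Holstein numbered 2, but 1 with DESeq2, 13 without the CPM minimum and 0 to 4 without each culture. Those higher in Angus numbered 1, but 0 with edgeR's quasi-likelihood test, 0 with DESeq2, 0 with total counts only, 2 with autosomal windows only, 10 without the CPM minimum, 0 to 2 without each culture and 4 with Holstein 1 and Angus 3 both left out. An unadjusted p below 0.05 was reached by 186 upstream windows with the quasi-likelihood test, 129 with DESeq2 and 117 with total counts only, against 209 in the test reported. With the animal number as a replicate block the counts were 3 and 0, and the breed differences had p = 0.5, 0.5 and 0.375 (exact sign-flip permutation test over 4 pairs, smallest possible p 0.125). The deviations of same-numbered Holstein and Angus cultures correlated with r from -0.191 to 0.0639 over 3967 windows, so the numbers were not taken to pair the animals. Depth limits single windows, since the median upstream window held 4 to 16 reads per library. Most upstream windows lay below the CPM minimum, which is scaled to library size, and 13.4% were tested.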
